A study of Mus musculus with 19 samples.

Results

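Transcripts of 9 genes that place, copy, remove or guard DNA methylation were followed through single mouse embryos of an in vitro fertilisation experiment. The genes were taken by name from the table of 53379 genes: Dnmt1, Uhrf1, Dnmt3a, Dnmt3b, Dnmt3l, Tet1, Tet2, Tet3 and Dppa3, and all 9 were found, each once. Every embryo was B6D2F1, was grown in KSOM medium at 37 °C under 5% CO2 and was lysed alone 96 h after insemination. Crosses of Alyref+/- with Alyref+/- parents gave 2 Alyref KO (Alyref-/-) morulae, 3 other morulae and 3 blastocysts, and crosses of Gabpb1+/- with Gabpb1+/- parents gave 3 Gabpb1 KO (Gabpb1-/-) morulae, 2 other morulae and 3 blastocysts. WT parents gave 3 blastocysts. The other embryos of the 2 mutant crosses were WT or heterozygous, which the labels do not separate, and are called non-KO here. No KO blastocyst and no WT morula was among the 19 embryos, so KO embryos were compared with non-KO morulae of their own cross. KO status was read by the submitters from missing reads over the deleted stretch in these same libraries. Cross and fertilisation cannot be told apart, because no label gives a second fertilisation of any cross. Morulae and blastocysts were all lysed at 96 h, so the morulae were not an earlier time point. Blastocyst stage and faster development cannot be told apart. Stage effects, and genes said to fall, are given for blastocysts against morulae of the same age.

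DNA methylation is copied after replication by DNMT1, which UHRF1 brings to hemimethylated sites. DNMT3A and DNMT3B add methyl groups to unmethylated DNA, and DNMT3L, which has no catalytic activity of its own, stimulates them. TET1, TET2 and TET3 oxidise methylated cytosine, which opens a route to its removal. DPPA3 (also called Stella or PGC7) is a maternal and pluripotency-associated protein that shields methylation from TET3 in the zygote and restrains UHRF1 at chromatin. Methylation of the mouse genome falls through cleavage and is built up again around implantation, so morulae and blastocysts lie near its low point. The gene products knocked out here are ALYREF, which couples mRNA processing to nuclear export, and GABPB1, a subunit of the ETS-family transcription factor GABP.

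The libraries held 7486125 to 31536282 gene counts (median 13633603), and ERCC spike-in RNA took 0.501 to 1.95% of all counts. Alyref was 4.16-fold lower in the libraries labelled Alyref KO than in non-KO morulae of that cross (53.1 against 221 CPM, the usual depth-scaled count, log2 fold change -2.05 with SE 0.30, adjusted p = 0.0227 by edgeR's quasi-likelihood test). Since KO status was read from the reads of these same libraries, that lower level is not an independent check of the label. Gabpb1 was not lower in the libraries labelled Gabpb1 KO (163 against 88.6 CPM, log2 fold change 0.88 with SE 0.39, adjusted p = 0.243), but a count over the whole gene does not show the deleted stretch and so does not check that label. Summed markers of trophectoderm, the outer lineage of the blastocyst (14 genes, 13 or 14 of them detected in every embryo), were at 503 to 5097 CPM in morulae and at 5312 to 8174 CPM in blastocysts. Of 14 epiblast and pluripotency markers, 12 to 14 were detected in every embryo. Cumulus and granulosa markers (12 genes) summed to 4.26 to 24.1 CPM. Amhr2 was the most abundant of them, at 1.98 to 23.9 CPM, and Fshr was at 0 counts in every embryo. In whole embryos, fewer cells of a type and less RNA per cell cannot be told apart.

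Between morulae and blastocysts, Dppa3 was the only member at adjusted p under 0.05 by edgeR, and the Gabpb1 cross alone gave none. The Dppa3 level in Alyref-cross blastocysts was 2.31-fold below that in non-KO morulae of the same cross, and this call was lost without some single embryos. Dnmt3b was 3.53-fold higher in those blastocysts and just missed the threshold. In the knockouts, no member passed the test at adjusted p under 0.05; the nearest was Dnmt3l, 2.59-fold lower in Alyref KO morulae, with both KO embryos below all 3 non-KO embryos. Tet3 was the lowest member, at a mean 25.4-fold below Tet2 per length. These levels are plotted for each embryo in the panels of CPM by group.

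**Figure D1:**
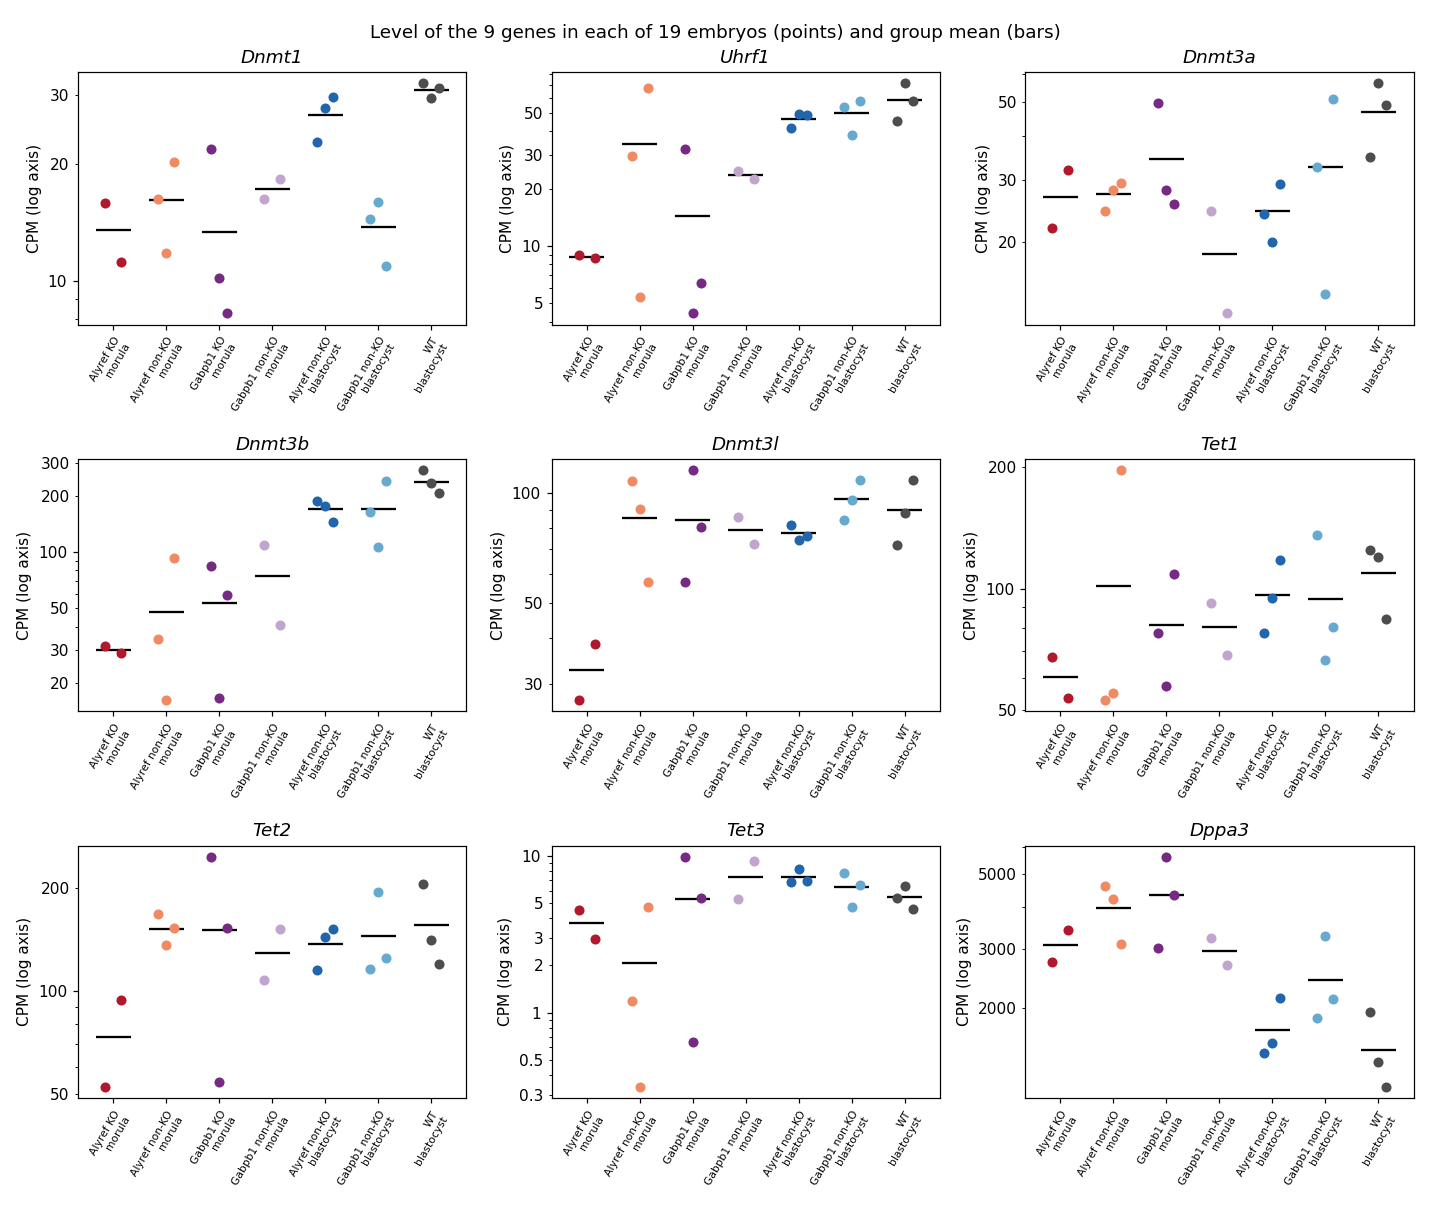
CPM (log axis) of the 9 genes in each of the 19 embryos by group; points are embryos and bars are group means. Dppa3 sits between 2675 and 5620 CPM in the 10 morulae and between 1163 and 3281 CPM in the 9 blastocysts, Dnmt3b has its 3 highest morula values at 84.3 to 108.8 CPM and its blastocyst values at 106.7 to 273.4 CPM, and the 2 Alyref KO morulae have the lowest Dnmt3l values, 27.1 and 38.5 CPM.

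Levels of different genes are compared here only per length, as FPKM (depth- and length-scaled counts) computed from the counts and the deposited exon lengths, averaged over the 19 embryos. Those lengths merge the exons of all annotated transcripts, from 892 bases for Dppa3 to 16870 for Tet2. The order of the genes therefore depends on that annotation, and which transcripts were present was not determined. Dppa3 stood apart at a mean of 3149 FPKM, rank 13 of the 53379 genes. Dnmt3l (26.7 FPKM) and Dnmt3b (23.5 FPKM) came next, followed by Uhrf1 (8.44), Tet2 (8.24) and Tet1 (5.96 FPKM). Dnmt1 and Dnmt3a were low: Dnmt1 had a mean of 2.62 FPKM and Dnmt3a of 1.87 FPKM, which placed these genes at ranks 10918 and 12252. Tet3, the oocyte and zygote enzyme of its family, was lowest at 0.325 FPKM. The counts behind these levels ran from 17304 to 84993 per embryo for Dppa3, from 180 to 5836 for Dnmt3b and from 4 to 212 for Tet3, so counting error is smallest for Dppa3 and largest for Tet3.

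Levels within a gene are given as CPM on a scaled library size. When the 7 groups were put in order of their mean CPM, most neighbours in that order overlapped: all 6 pairs for Dnmt3a, Tet3, Uhrf1 and Dppa3, and 5 of 6 for each of the others. The exceptions were between Gabpb1 non-KO morulae and Alyref-cross blastocysts for Dnmt1, and between Alyref-cross and WT blastocysts for Dnmt3b. For Dnmt3l, Tet1 and Tet2 the exception was the Alyref KO morulae, which were the lowest group by mean and lay below the next one. The Tet1 values of the Alyref KO morulae still overlapped those of the non-KO morulae of their own cross. Spread among embryos differed by gene and stage. Among the 10 morulae the highest value exceeded the lowest 15.2-fold for Uhrf1 and 6.69-fold for Dnmt3b, against 1.88-fold and 2.56-fold among the 9 blastocysts. Dnmt1 and Dnmt3a varied about as much at both stages (2.62-fold and 3.92-fold in morulae, 2.94-fold and 3.94-fold in blastocysts). Dppa3 varied 2.10-fold in morulae and 2.82-fold in blastocysts.

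The maintenance enzyme Dnmt1 (ENSMUSG00000004099.16, chr9:20907209-20959888, minus strand, GRCm38) was low in morulae. Its values were 16.3, 11.8 and 20.3 CPM in Alyref non-KO morulae and 22.7, 27.9 and 29.6 CPM in the blastocysts of that cross, with no overlap. In the Gabpb1 cross the order was the opposite: 16.3 and 18.3 CPM in non-KO morulae and 14.4, 16.0 and 10.9 CPM in blastocysts, again with no overlap. WT blastocysts, at 32.2, 29.5 and 31.3 CPM, were the highest group and the tightest one. The log2 fold change from morula to blastocyst was 0.73 in the Alyref cross (SE 0.32, 95% interval 0.05 to 1.41, adjusted p = 0.135) and -0.33 in the Gabpb1 cross (95% interval -1.08 to 0.43, adjusted p = 0.911). The difference between these 2 stage effects was -1.05 (adjusted p = 0.348). Gabpb1-cross blastocysts all lay below all WT blastocysts, at a log2 fold change of -1.17 (SE 0.32, 95% interval -1.86 to -0.48), and this also did not pass over all genes (adjusted p = 0.579). Dnmt1 was 15.8 and 11.2 CPM in the Alyref KO morulae, overlapping their non-KO morulae with the second embryo just below all 3, and 21.8, 10.2 and 8.3 CPM in the Gabpb1 KO morulae, on both sides of theirs.

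Uhrf1 (ENSMUSG00000001228.14, chr17:56303321-56323486, plus strand), the partner that guides DNMT1, was uneven in morulae and steady in blastocysts. Alyref non-KO morulae held 29.6, 5.4 and 67.4 CPM and Gabpb1 non-KO morulae 24.6 and 22.4 CPM. Blastocysts held 41.7, 49.3 and 48.9 CPM in the Alyref cross, 53.4, 38.0 and 57.3 CPM in the Gabpb1 cross and 45.4, 71.4 and 57.9 CPM in the WT cross. All 9 blastocysts were thus above every morula except the third Alyref non-KO morula. The stage difference was 0.45 on the log2 scale in the Alyref cross (95% interval -1.01 to 1.90, adjusted p = 0.689). It was 1.08 in the Gabpb1 cross (95% interval -0.61 to 2.76, adjusted p = 0.837), where the embryos did not overlap. Alyref KO morulae, at 9.0 and 8.6 CPM, lay within the wide range of their non-KO morulae (log2 fold change -1.96, 95% interval -3.73 to -0.19, adjusted p = 0.351). The fold change was -1.0 without the third Alyref non-KO morula. Gabpb1 KO morulae held 32.3, 4.4 and 6.4 CPM, with 1 embryo above and 2 below their non-KO morulae. Across the 10 morulae Uhrf1 and Dnmt1 varied together (Pearson r = 0.86 of log2(CPM + 1)), while across the 9 blastocysts r was 0.11. Counts of the processed pseudogene Gm5648, which matches the Uhrf1 transcript over 1590 bases at 98.3% identity, were 5.46 to 9.30% of Uhrf1's counts.

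The de novo enzyme Dnmt3b (ENSMUSG00000027478.15, chr2:153649450-153687730, plus strand) had the widest difference between the stages. Alyref non-KO morulae held 34.5, 16.3 and 93.2 CPM, and the blastocysts of that cross held 188.1, 176.5 and 144.7 CPM. Gabpb1 non-KO morulae held 108.8 and 40.6 CPM, against 163.5, 106.7 and 239.0 CPM in blastocysts, and WT blastocysts held 273.4, 234.5 and 205.5 CPM. The groups of the Alyref cross did not overlap, those of the Gabpb1 cross overlapped by 1 embryo on each side, and every WT blastocyst was above every Alyref-cross blastocyst. The log2 fold change from morula to blastocyst was 1.82 in the Alyref cross (SE 0.59, 95% interval 0.57 to 3.08, adjusted p = 0.0529) and 1.18 in the Gabpb1 cross (95% interval -0.23 to 2.60, adjusted p = 0.787). The mean of the 2 crosses was 1.5 (SE 0.45, 95% interval 0.55 to 2.46, adjusted p = 0.0625). Without the third Alyref non-KO morula, whose Dnmt3b level was the highest of its group, the Alyref-cross value was 2.74 (adjusted p = 0.00569) and the mean was 1.96 (adjusted p = 0.00783), so that both passed. DESeq2 also called Dnmt3b in the Alyref cross (adjusted p = 0.00835), among 1786 genes higher and 1976 lower. It called Dnmt3b in the mean too (adjusted p = 0.00658), among 1080 genes higher and 1289 lower.

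Dnmt3b was among the members that moved with the trophectoderm markers. Across the 10 morulae its r with their summed CPM was 0.80 on log2(CPM + 1), and across the 9 blastocysts it was 0.33. In the morulae r was also positive for Tet3 (0.80), Dnmt1 (0.69), Uhrf1 (0.65), Tet1 (0.48) and Tet2 (0.38). It was negative for Dnmt3a (-0.17), Dnmt3l (-0.28) and Dppa3 (-0.82). In the Alyref-cross stage comparison 5 of the 14 markers were higher and 1 was lower, and their sum was 1049 to 2412 CPM in morulae against 5312 to 8174 CPM in blastocysts. The third Alyref non-KO morula had the highest of those morula sums. The second, with the lowest Dnmt3b level of the 19 embryos, had the highest sum of 2-cell-stage markers, 227 CPM. The part of lineage makeup or developmental state in the Dnmt3b difference was not tested. Neither knockout gave a called change: the Alyref KO morulae held 31.5 and 28.8 CPM (log2 fold change -0.67, adjusted p = 0.751, and 0.24 without the third Alyref non-KO morula), and the Gabpb1 KO morulae held 84.3, 16.7 and 59.1 CPM (log2 fold change -0.49, adjusted p = 0.711).

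**Figure D2:**
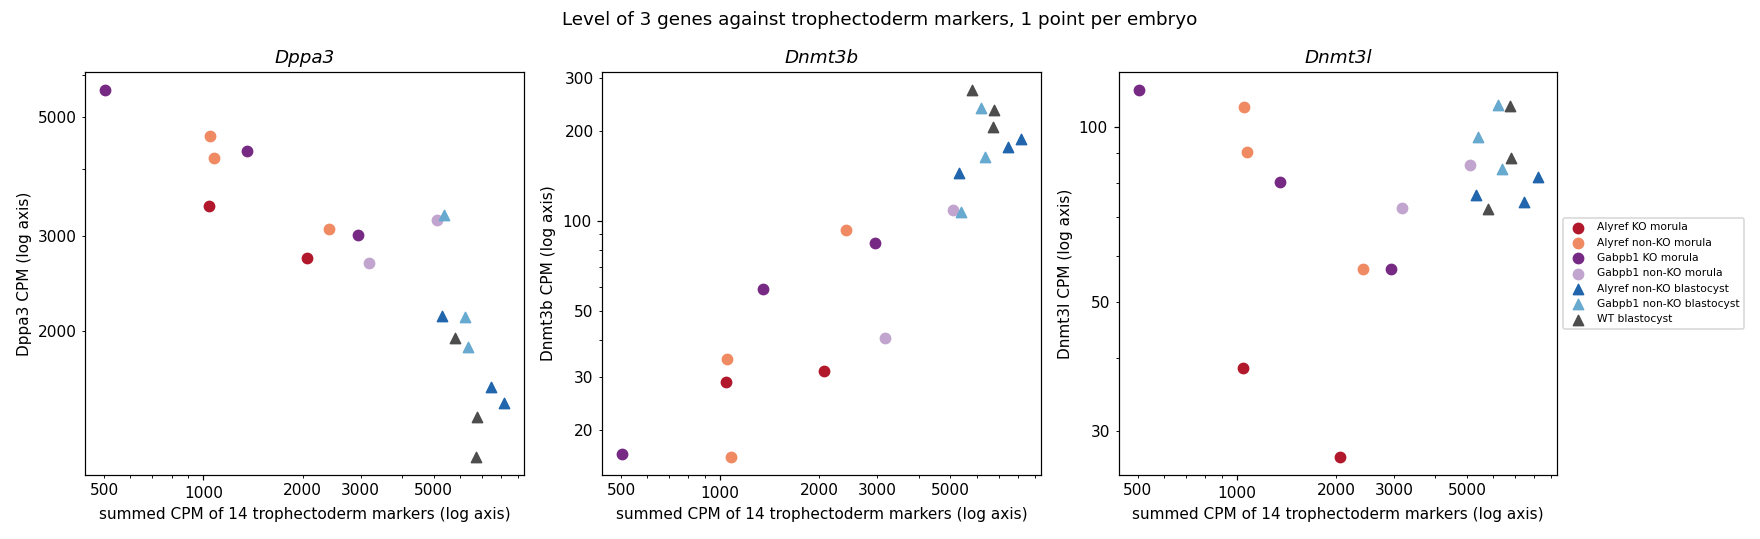
CPM of Dppa3, Dnmt3b and Dnmt3l in each embryo (vertical, log axis) against the summed CPM of 14 trophectoderm markers (horizontal, log axis); circles are morulae, triangles are blastocysts. Among the 10 morulae Dppa3 falls (r = -0.82) and Dnmt3b climbs (r = 0.80) along the marker sum, and Dnmt3l shows a weaker relation (r = -0.28); the embryos share library scaling, and no test was made.

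Dnmt3l (ENSMUSG00000000730.13, chr10:78041947-78063622, plus strand), the stimulating partner of DNMT3A and DNMT3B, stood out by its low level in the Alyref KO morulae. These held 27.1 and 38.5 CPM, and the non-KO morulae of the cross held 108.0, 90.6 and 57.0 CPM. The other groups held 56.9, 115.5 and 80.4 CPM (Gabpb1 KO morulae), 85.9 and 72.6 CPM (Gabpb1 non-KO morulae), and 72.0 to 108.8 CPM (all 9 blastocysts). The 2 Alyref KO morulae were therefore the lowest of the 19 embryos. The log2 fold change against non-KO morulae was -1.38 (SE 0.32, 95% interval -2.05 to -0.70), with an adjusted p of 0.0895 over all genes. The call changed with the tool and with 1 embryo: it passed by DESeq2 (-1.37, adjusted p = 0.00357), by limma's voom (-1.56, adjusted p = 0.00878) and without the third Alyref non-KO morula (-1.60, adjusted p = 0.0362). That morula had the lowest Dnmt3l level of its group, so leaving it out widens the difference. In Gabpb1 KO morulae the fold change was 0.09 (95% interval -0.55 to 0.73, adjusted p = 0.907).

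The difference between the 2 knockout effects on Dnmt3l was 1.46 (SE 0.44, 95% interval 0.54 to 2.39, adjusted p = 0.118), higher in the Gabpb1 knockout. That difference passed without the third Alyref non-KO morula (1.68, adjusted p = 0.036) and without the first Gabpb1 KO morula (1.68, adjusted p = 0.0447), and under DESeq2 (1.45, adjusted p = 0.0352). Each of these embryos had the lowest Dnmt3l level of its group, so leaving it out widens the difference by itself. Beside it, summed oocyte and maternal markers (14 genes) were 29.8 and 37.0 CPM in the Alyref KO morulae against 73.5 to 86.2 CPM in their non-KO morulae. Ooep was the most abundant of these markers, at up to 185 CPM, and Padi6 came next at up to 32.0 CPM, so 1 gene can carry the sum. That sum was 92.4 to 194 CPM in blastocysts, but most single markers went the other way. Of the 5 markers tested, 2 were called lower and 0 higher in Alyref-cross blastocysts than in morulae. Their median log2 fold change there was -2.54, with 2 of the 5 above 0. In the Alyref knockout 0 of the 5 had a fold change above 0, and the median was -0.68. The trophectoderm sums of the Alyref KO and non-KO morulae overlapped, at 1041 to 2058 CPM against 1049 to 2412 CPM. The part of the oocyte and maternal transcripts in the Dnmt3l difference was not tested. Between the stages Dnmt3l was not called: its log2 fold change was -0.14 in the Alyref cross (95% interval -0.71 to 0.43) and 0.28 in the Gabpb1 cross (95% interval -0.36 to 0.93). Dnmt3l shares 67 exon bases with Aire on the other strand, and Aire had at most 23 counts in any embryo.

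Dnmt3a (ENSMUSG00000020661.15, chr12:3806007-3914443, plus strand), the other catalytic de novo enzyme, was low in all groups. Gabpb1 KO morulae held 49.5, 28.2 and 25.7 CPM, all above the 24.5 and 12.6 CPM of their non-KO morulae, by narrow margins in 2 of them (log2 fold change 0.89, 95% interval -0.07 to 1.85, adjusted p = 0.303). Alyref KO morulae held 21.9 and 32.0 CPM around the 24.6, 28.2 and 29.4 CPM of theirs (log2 fold change -0.02, 95% interval -0.96 to 0.92). Alyref-cross blastocysts held 24.1, 20.0 and 29.3 CPM and lay below the WT blastocysts at 35.0, 56.4 and 49.0 CPM, which did not pass (log2 fold change -0.94, 95% interval -1.78 to -0.10, adjusted p = 1). Gabpb1-cross blastocysts spread from 14.3 to 51.0 CPM.

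As shares of the summed FPKM of the 3 Dnmt3 genes, Dnmt3l made up 30.2 to 88.6%, Dnmt3b 7.5 to 67.1% and Dnmt3a 1.6 to 9.4%. The makeup differed by stage, given here without a test: Dnmt3b's share was 23.7% ± 20.2 (SD, n = 3) in Alyref non-KO morulae and 54.7% ± 3.3 (SD, n = 3) in the blastocysts of that cross. It was 32.7% ± 12.2 (SD, n = 2) in Gabpb1 non-KO morulae, up to 41.3%, which overlapped the 48.2% ± 8.2 (SD, n = 3) of Gabpb1-cross blastocysts, lowest 38.8%. It was 58.7% ± 8.3 (SD, n = 3) in WT blastocysts. The highest Dnmt3a shares, 8.0 and 9.4%, were those of the 2 Alyref KO morulae, where Dnmt3l was lowest. Per length Dnmt3b exceeded Dnmt3a in all 19 embryos, 1.88-fold to 28.7-fold. The merged exon length used was 16642 bases for Dnmt3a (18 transcripts) and 5106 for Dnmt3b (12 transcripts), which lowers the Dnmt3a shares. By CPM, without the length, Dnmt3a was above Dnmt3b in the second Alyref KO, second Alyref non-KO and second Gabpb1 KO morulae. Dnmt3c, the rodent copy of Dnmt3b known from male germ cells, had a median of 5.2% of Dnmt3b's counts; its highest value was 40.4%, in the second Alyref non-KO morula, and 3.77 to 13.5% were seen in the other embryos.

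**Figure D3:**
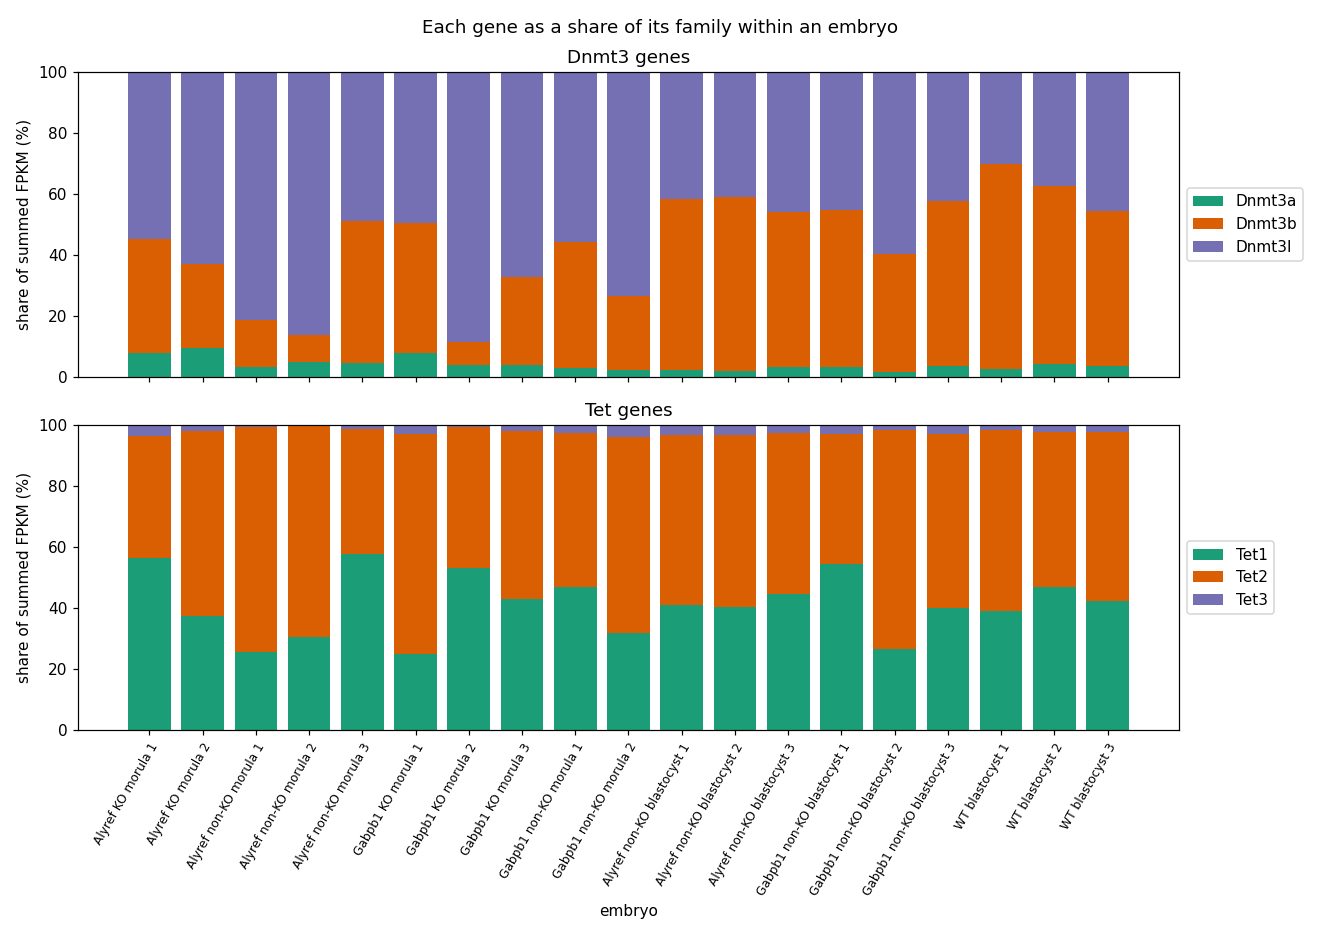
Share (percent) of each Dnmt3 gene (top) and each Tet gene (bottom) in the family's summed FPKM, with 1 stacked bar per embryo. Dnmt3l has the largest share in all 10 morulae, Dnmt3b reaches 38.8 to 67.1% in blastocysts, and Tet3 never exceeds 4.0%.

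The start-site sequences of Dnmt3b and Dnmt3l are shown as examples, and no link between them and the levels was tested. Each window runs from 250 bases before to 50 after a RefSeq start (GRCm38.p6), 5′ to 3′ on the gene's strand, with every CpG in capitals. The Dnmt3b window is chr2:153649199-153649498 and the Dnmt3l window is chr10:78042037-78042336, the first of its several starts along the chromosome. Which start these embryos used was not determined.
Dnmt3b: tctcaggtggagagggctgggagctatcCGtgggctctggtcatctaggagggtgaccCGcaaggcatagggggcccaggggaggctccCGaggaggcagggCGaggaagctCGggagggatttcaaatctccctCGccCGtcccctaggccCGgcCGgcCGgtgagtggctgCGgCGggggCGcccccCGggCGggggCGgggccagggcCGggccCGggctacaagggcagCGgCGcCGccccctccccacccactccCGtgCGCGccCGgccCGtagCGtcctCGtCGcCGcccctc
Dnmt3l: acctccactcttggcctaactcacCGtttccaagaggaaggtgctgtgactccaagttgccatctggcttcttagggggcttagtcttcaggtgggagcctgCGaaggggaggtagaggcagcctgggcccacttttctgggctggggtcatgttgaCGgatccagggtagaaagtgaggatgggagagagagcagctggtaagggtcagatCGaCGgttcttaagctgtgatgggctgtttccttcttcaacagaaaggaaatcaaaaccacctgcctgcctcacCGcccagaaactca
The Dnmt3b window holds 30 CpGs and the Dnmt3l window 6, and the median over 32851 such windows is 7. Windows were found for 8 of the 9 genes, 15 in all. Tet2 had the most CpGs of the members, 57, and the other Dnmt3l starts held 4 and 3. The ETS-type letters CCGGAAG, searched on both strands, were in 0 of the 15 member windows and in 8.86% of all windows. This describes the letters of these windows, and methylation and binding were not measured.

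Tet2 (ENSMUSG00000040943.12, chr3:133463679-133545139, minus strand), an oxidising enzyme common in pluripotent cells, was, with Dnmt3l, a member whose Alyref KO morulae both lay below every non-KO morula of the cross. They held 52.7 and 94.1 CPM, both below the 167.5, 136.4 and 153.0 CPM of the non-KO morulae (log2 fold change -1.05, SE 0.46, 95% interval -2.03 to -0.07, adjusted p = 0.368). Gabpb1 KO morulae spread from 54.5 to 246.4 CPM around the 107.6 and 151.7 CPM of theirs (log2 fold change 0.22, adjusted p = 0.825). The difference between the knockout effects was 1.27 (95% interval -0.10 to 2.64, adjusted p = 0.334). Blastocysts held 115.2 to 205.8 CPM, and neither cross showed a stage difference past the test (log2 fold changes -0.15 and 0.16).

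Tet1 (ENSMUSG00000047146.17, chr10:62804570-62908996, minus strand) is the family member linked to pluripotent cells and CpG-rich promoters. Alyref KO morulae held 67.6 and 53.5 CPM, and the non-KO morulae 53.0, 55.0 and 196.7 CPM, so a single embryo carried the lower mean of the knockout (log2 fold change -0.75, adjusted p = 0.6, and 0.16 without the third non-KO morula). The same embryo was highest in its group for Dnmt3b, Uhrf1 and Dnmt1. Tet1 was at 57.2 to 109.0 CPM in Gabpb1 KO morulae, 91.9 and 68.6 CPM in their non-KO morulae and 66.4 to 136.2 CPM in blastocysts, and those groups overlapped. Per length Tet2 exceeded Tet1 in 15 of the 19 embryos, with a ratio of 0.713 to 2.91. Tet1 held 24.8 to 57.6% of the summed FPKM of the family, Tet2 40.2 to 73.9% and Tet3 0.2 to 4.0%.

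Tet3 (ENSMUSG00000034832.15, chr6:83362373-83459084, minus strand), which acts on the paternal genome in the zygote, never reached 1 FPKM (0.0176 to 0.610) and did not enter the test. Alyref non-KO morulae held 1.2, 0.3 and 4.7 CPM and the blastocysts of that cross 6.8, 8.2 and 6.9 CPM, with no overlap. In a fit of all 39262 genes with a count, that stage difference had a log2 fold change of 1.84 and an adjusted p of 0.147. Tet3 overlapped between the stages of the Gabpb1 cross, at 5.3 and 9.3 CPM in non-KO morulae and 7.7, 4.7 and 6.5 CPM in blastocysts, and the fold change was -0.18 (adjusted p = 1). The knockouts had adjusted p-values of 0.948 (Alyref) and 0.867 (Gabpb1) for Tet3 in that fit.

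Dppa3 (ENSMUSG00000046323.8, chr6:122626410-122630272, plus strand) was the most abundant member and the only one edgeR called between the stages, in the Alyref cross and in the mean of both. Alyref non-KO morulae held 4615, 4202 and 3098 CPM, and the blastocysts of that cross held 1463, 1569 and 2133 CPM. Gabpb1 non-KO morulae held 3223 and 2675 CPM, and the blastocysts of that cross held 1861, 3281 and 2124 CPM. WT blastocysts held 1939, 1376 and 1163 CPM. The Alyref-cross groups were apart by a wide margin, while in the Gabpb1 cross the second blastocyst lay above both morulae. The log2 fold change from morula to blastocyst was -1.21 in the Alyref cross (SE 0.28, 95% interval -1.79 to -0.62, adjusted p = 0.0152), and -0.28 in the Gabpb1 cross (95% interval -0.93 to 0.36, adjusted p = 0.908). The difference between the 2 stage effects was 0.92 (95% interval 0.05 to 1.80) and did not pass (adjusted p = 0.343).

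The mean of the 2 stage effects on Dppa3 was -0.75 (SE 0.20, 95% interval -1.18 to -0.31, adjusted p = 0.0499), a 1.68-fold lower level in blastocysts. The Alyref-cross call was lost without the first (adjusted p = 0.059) or second (0.0697) non-KO morula and without the first (0.0725) or second (0.0692) blastocyst, at log2 fold changes of -1.06 to -1.14. It was also lost with scaling to the spike-ins (-1.43, adjusted p = 0.127). The call on the mean was kept without the third Alyref non-KO morula or the second Gabpb1-cross blastocyst, and was lost without each of the other 9 embryos (adjusted p = 0.0557 to 0.129). Dppa3 ran against the trophectoderm sum across the 10 morulae (r = -0.82) and the 9 blastocysts (r = -0.73), and the part of lineage makeup was not tested. Dppa3 was not called in either knockout. Alyref KO morulae held 2731 and 3413 CPM (log2 fold change -0.37, 95% interval -1.02 to 0.28, adjusted p = 0.693). Gabpb1 KO morulae held 3016, 5620 and 4321 CPM, 2 of them above both of their non-KO morulae and 1 of these the highest of the 19 embryos (log2 fold change 0.55, 95% interval -0.11 to 1.21, adjusted p = 0.353). Under spike-in scaling that Dppa3 value was -0.12.

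Part of the Dppa3 transcript is matched by a processed copy, and the sequences are shown because they bear on what was counted. Dppa3-ps, a transcribed processed pseudogene, aligns with the Dppa3 transcript over 451 bases, of which 443 are identical. Coding bases 3 to 122 of the 453 in Dppa3 (GENCODE M21 transcripts) and the matching stretch of the copy are, with the 2 differing bases in capitals:
Dppa3: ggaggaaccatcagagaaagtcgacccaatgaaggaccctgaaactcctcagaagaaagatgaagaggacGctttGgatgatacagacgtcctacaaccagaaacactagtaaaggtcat
Dppa3-ps: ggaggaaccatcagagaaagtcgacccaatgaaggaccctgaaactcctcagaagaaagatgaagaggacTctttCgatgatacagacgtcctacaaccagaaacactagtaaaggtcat
Counts assigned to Dppa3-ps were 8.12 to 8.56% of Dppa3's in all 19 embryos, and the Pearson r of the 2 genes was 0.999. Reads of near-identical sequence can be assigned to either gene, so the division between them is uncertain. With the counts of the pair summed, Dppa3 was still called lower in Alyref-cross blastocysts, and its mean over both crosses had an adjusted p of 0.0501.

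Counted over the 8 members tested, the knockouts gave no call by edgeR. In the Alyref knockout edgeR called 0 of 8, against 0.228% of all 18410 genes tested, while DESeq2 called 1, Dnmt3l, among 193 genes higher and 309 lower. Dnmt3l, Tet2 and Uhrf1 were the 3 members with p under 0.05 before adjustment, against 12.1% of all genes. All 8 fold changes were negative, with a median of -0.71 on the log2 scale against -0.04 over all genes. Without the third Alyref non-KO morula Dnmt3b (0.24), Tet1 (0.16) and Dnmt3a (0.03) were positive. Dnmt3l and Tet2 were the 2 whose KO embryos all lay lower, against 12.3% of all genes. In the Gabpb1 knockout edgeR and DESeq2 called 0 of 8 (1.65% of all genes by edgeR), and 0 members had p under 0.05 before adjustment (18.9% of all genes). The median fold change there was 0.05, against 0.06 over all genes, and Dnmt3a was the 1 member whose KO embryos all lay higher (15.8% of all genes). The trophectoderm sums of these groups did not overlap, at 503 to 2944 CPM in Gabpb1 KO and 3174 to 5097 CPM in non-KO morulae, and their part in the member values was not tested. The difference between the knockout effects was called for 0 of 8 by edgeR (0.907% of all genes) and for 1, Dnmt3l, by DESeq2, which called 412 genes higher and 482 lower. Before adjustment Dnmt3l was also the 1 member with p under 0.05 for that difference (16.8% of all genes).

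The stage comparison in the Alyref cross had 1 of 8 called, Dppa3, against 13% of all genes in either direction and 7.43% in the lower direction. The share of members called was therefore close to the background. Before adjustment 3 of 8, Dppa3, Dnmt3b and Dnmt1, had p under 0.05 (31.1% of all genes). Dnmt1 and Dnmt3b lay higher in blastocysts with no overlap (19.6% of all genes), and Dppa3 lower (19.2%). In the Gabpb1 cross edgeR called 0 of 8 and 0% of all genes, and DESeq2 called 57 genes and 0 members. Before adjustment 0 members and 1237 genes (6.72%) had p under 0.05 there. Uhrf1 lay higher (11.4% of all genes) and Dnmt1 lower (11.7%) in that cross with no overlap. The mean of both crosses had 1 of 8 called, Dppa3 (4.36% of all genes in either direction, 2.66% lower), and 2 of 8, Dppa3 and Dnmt3b, with p under 0.05 before adjustment (24.5% of all genes). The 2 stage effects differed for 0 of 8 members by edgeR (0.00543% of all genes), with 2 of 8, Dnmt1 and Dppa3, under 0.05 before adjustment (13.8% of all genes).

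**Figure D4:**
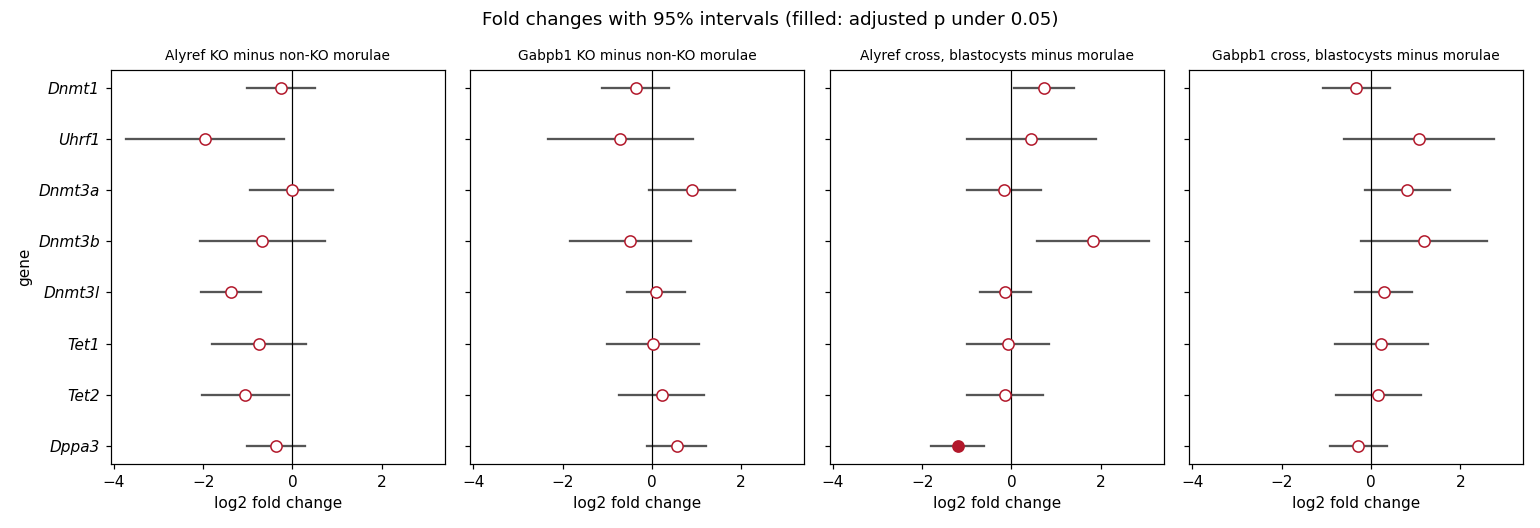
Log2 fold change of the 8 tested members with 95% intervals in 4 comparisons: each knockout against its non-KO morulae, and blastocysts against morulae in each cross. Filled points have an adjusted p under 0.05; the only one is Dppa3 in the Alyref-cross stage comparison, at -1.21.

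Crosses were also compared with each other. In non-KO morulae of the Gabpb1 cross against those of the Alyref cross, edgeR called 0 of 8 members (1.86% of all genes) and 0 had p under 0.05 before adjustment (22.4% of all genes). Dnmt3a alone did not overlap there, at -0.56 in the Gabpb1 cross (18.2% of all genes lay lower with no overlap). Against WT blastocysts edgeR called 0 of 8 in Alyref-cross blastocysts (0% of all genes) and 0 of 8 in Gabpb1-cross blastocysts (0%). Before adjustment 1 member, Dnmt3a, and 541 genes (2.94%) had p under 0.05 in the former, and 2 members, Dnmt1 and Dppa3, and 1123 genes (6.1%) in the latter. Dnmt3a and Dnmt3b lay lower with no overlap in Alyref-cross blastocysts (6.15% of all genes), and Dnmt1 in Gabpb1-cross blastocysts (6.33%). The Gabpb1-cross blastocysts differed from WT in Dppa3 by 0.70 on the log2 scale (95% interval 0.12 to 1.28, adjusted p = 0.8). The WT blastocysts serve in both of these comparisons. Of 14 markers of primitive endoderm, another blastocyst lineage, 0 had a fold change above 0 against WT in either cross. Their median log2 fold change was -1.57 in Alyref-cross and -1.17 in Gabpb1-cross blastocysts. By edgeR 0 of the 14 were called, and 6 and 5 had p under 0.05 before adjustment. The part of lineage makeup in these member differences was not tested.

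Of 93 other genes listed for DNA methylation and its chromatin partners, 82 were tested. In the Alyref-cross stage comparison 3 were higher and 11 lower in blastocysts, 17.1% of those tested, against 13% of all genes in either direction and 7.43% lower. The median log2 fold change of the 82 was -0.05, against -0.04 over all genes. The methyl donor cycle had 1 higher and 3 lower of 14, the partners of TET and DPPA3 proteins 3 lower of 8, and the genes that recruit DNMT3 proteins or write the marks around them 3 lower of 10. Base excision and deamination had 1 lower of 15, methyl-CpG readers 1 higher of 3, and imprint protection 1 higher and 1 lower of 12. The remaining lists had 0 called. The 6 with the largest fold changes at a mean of 5 FPKM or more all fell. Bhmt, which remethylates homocysteine from betaine, fell by 3.30 on the log2 scale (160 against 1576 CPM, adjusted p = 0.00849), and its relative Bhmt2 fell by 3.63 (adjusted p = 0.0223). Mat2a, which makes the methyl donor S-adenosylmethionine, fell by 1.65 (169 against 528 CPM, adjusted p = 0.0259). Dppa2, a pluripotency-associated chromatin factor, fell by 1.71 (358 against 1171 CPM, adjusted p = 0.0108). Pcgf6 and E2f6, subunits of a variant Polycomb complex that silences germ-cell genes, fell by 1.25 (adjusted p = 0.0108) and 1.24 (adjusted p = 0.0402).

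In the mean of both crosses Bhmt (-2.54, adjusted p = 0.0151), Dppa2 (-0.95, adjusted p = 0.0488) and E2f6 (-1.10, adjusted p = 0.0363) were lower in blastocysts, 3.66% of the pathway genes tested against 4.36% of all genes. In the Gabpb1 cross alone and in both knockouts edgeR called 0 of the 82. Before adjustment 8 of 82 had p under 0.05 in the Gabpb1 cross, against 1237 of all 18410 genes (6.72%). In the Alyref knockout 20 of 82 did, against 2225 (12.1%), and in the Gabpb1 knockout 14 of 82, against 3476 (18.9%). The share of pathway genes was above that of all genes in the first 2 comparisons and below it in the third. Hells, a chromatin remodeller needed for the methylation of repeats, was at 39.4 CPM in Alyref KO and 93.3 CPM in non-KO morulae (log2 fold change -1.25, adjusted p = 0.171). Tdg, the glycosylase that removes oxidised methylcytosine, was at 56.3 CPM in Alyref-cross blastocysts and 13.4 CPM in morulae (2.06, adjusted p = 0.0618). Zfp57, a zinc-finger protein that guards imprints, had a mean stage effect of 1.32 (adjusted p = 0.0602), and its cofactor Trim28 of 0.48 (adjusted p = 0.187). Trdmt1, the tRNA methyltransferase of this protein family, had an adjusted p of at least 0.365 in every comparison. When the non-KO morulae of each cross were compared, 1 pathway gene differed, Apobec3, lower by 4.96 on the log2 scale in the Gabpb1 cross (adjusted p = 0.0282), and it is named because it was the only one.

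Likeness of pattern was measured as Pearson r of log2(CPM + 1) over the 19 embryos, among 8364 genes with a mean of 5 FPKM or more. Dnmt3b was nearest to Crk (r = 0.964), H2afy (0.963) and Wnt7b (0.956). Dnmt3l was nearest to Cox7a2l (0.937), Alyref (0.906) and Nudt2 (0.867). Since Alyref itself is low in the 2 Alyref KO morulae, its r with Dnmt3l was also taken without them and was 0.652 over 17 embryos. Uhrf1 was nearest to Vasp (0.944), Dnmt1 to Ktn1 (0.864) and Dnmt3a to Llgl1 (0.720). Tet1 was nearest to Glg1 (0.880), Tet2 to Snrnp35 (0.854) and Tet3 to Neu1 (0.919). Dppa3 was nearest to Dppa3-ps (0.999), then to Gm15620 (0.994) and AC154305.1 (0.991). Among member pairs, Dnmt3b and Tet1 had r = 0.75 in the 10 morulae and 0.34 in the 9 blastocysts, and Dppa3 and Dnmt3l had r = 0.71 and -0.02. Dppa3 and Tet3 had r = -0.78 in morulae and -0.15 in blastocysts, and Uhrf1 and Dnmt3a had 0.05 and 0.87. These values describe embryos of several groups that share stage and library scaling.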

How the data were processed

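RNA of 19 single mouse embryos was sequenced after full-length cDNA synthesis and Nextera XT library preparation, per the labels' protocols, with ERCC spike-ins added after lysis. Reads were handled with Trimmomatic, Trim Galore, cutadapt, STAR and featureCounts on mm10, per the submitters' processing notes; versions, roles, strand setting and the handling of reads with several matches are not given in the sources used here. The deposited table holds whole-number counts per gene, although its name announces FPKM, and it gives an exon length per gene. Its 92 spike-in entries were left out of library sizes. Gene ends matched GENCODE M21 for 50604 of 53379 genes.

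CPM used edgeR's TMM scaling. FPKM was computed from these counts and the deposited lengths. Genes at 1 FPKM or more in at least 2 embryos were tested (18410, with 8 of the 9 members) by edgeR 4.0.16 quasi-likelihood (R 4.3.3) with a mean for each of the 7 groups, and Benjamini-Hochberg adjustment over all of them. The threshold was an adjusted p under 0.05. Standard errors and 95% intervals come from the F statistic and its degrees of freedom. The procedure was tested on simulated data. DESeq2 1.42.0, limma 3.58.1 with log2(FPKM + 1) or log2(FPKM + 0.1), voom, other scalings and filters, a replicate block and leaving out each embryo were alternatives. Every embryo is a separate sample per the labels. No 2 libraries were identical.

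All members are named. Of the pathway lists, called genes with a mean of 5 FPKM or more are named, at most the 6 with the largest fold change per comparison, and Trdmt1, Tdg, Trim28, Zfp57 and Hells always. The members and lists were chosen with earlier results of these data known. RefSeq promoter windows and GENCODE M21 transcripts gave the sequences.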

Additional observations from a re-analysis of the deposited data

How the results depend on the processing

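The members that passed or missed the threshold depended on the tool and on single embryos, and no called member changed direction. Signs of uncalled members did change, in 108 values over all comparisons, of which only those in the knockouts are listed here. In the Alyref knockout they were those of Dnmt3a in 7 settings and of Dnmt3b and Tet1 in 1. In the Gabpb1 knockout they were those of Tet1 in 8, Dnmt3l in 5, Tet2 in 4, and Dnmt3b and Dppa3 in 1 each. In the Alyref knockout 0 members were called, and 1 under DESeq2's Wald test, limma on log2(FPKM + 1) and voom, with a range of 0 to 1 when each embryo was left out in turn. In the Alyref-cross stage comparison 1 was called; it was 2 with DESeq2 size factors, with every gene that had a count, with DESeq2, with limma at both pseudocounts and with the replicate block, 3 with voom, 0 with spike-in scaling or a fit of the compared groups alone, and 0 to 2 when each embryo was left out. For the mean of both crosses 1 was called; it was 0 with DESeq2 size factors, edgeR's filterByExpr, the compared groups alone, the replicate block and the summed copies, 2 with DESeq2, with limma at both pseudocounts and with WT blastocysts included, 3 with voom, and 0 to 2 when each embryo was left out. The difference between the knockouts went from 0 to 1 with DESeq2 and voom, with 0 to 1 when each embryo was left out. Summing copies and including WT blastocysts were chosen after seeing the data.

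Spike-in scaling moved the median of all genes from -0.04 to -0.34 (Alyref-cross stage), from 0.02 to -0.86 (Gabpb1-cross stage), from -0.02 to -0.61 (mean), from 0.06 to -0.40 (Gabpb1 knockout) and from -0.03 to 0.39 (Gabpb1 against Alyref non-KO morulae). The split of all genes called higher and lower went from 1035 and 1367 to 31 and 321 in the Alyref-cross stage comparison, from 313 and 490 to 16 and 1204 in the mean and from 64 and 239 to 0 and 26 in the Gabpb1 knockout. Over all alternatives, the count of all genes called ran from 0 to 841 in the Alyref knockout (42 as reported), from 0 to 1284 in the Gabpb1 knockout (303), from 24 to 7262 in the Alyref-cross stage comparison (2402), from 0 to 57 in the Gabpb1-cross one (0) and from 2 to 4324 in the mean (803). In the Alyref-cross stage comparison Dnmt3b was at 1.19 and Dppa3 at -1.43 under that scaling. Replicate numbers did not pair the embryos: the correlation of same-numbered embryos' deviations was -0.156 to 0.168 in 17 pairs. With the replicate block the Alyref-cross stage values were 2.10 for Dnmt3b (adjusted p = 0.0261), and the mean for Dppa3 was -0.73 (adjusted p = 0.0764). Groups of 2 or 3 embryos and the low counts of Tet3 limit what could be seen.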
